A study of Mus musculus with 3 samples.

Results

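Imprinted genes were measured in the mouse embryonic kidney by single-cell RNA-seq. The members are 34 genes known to be expressed from only 1 parental allele in some or all tissues, taken by name from 14 imprinted domains, out of 32285 genes in the count tables. The rule uses names and no measured value. By background knowledge, 19 are paternally expressed, 13 are maternally expressed and 2 (Gnas and Ube3a) depend on isoform or tissue, and 6 are long non-coding RNAs (H19, Meg3, Rian, Mirg, Airn and Kcnq1ot1). The counts do not separate the parental alleles, so every value is the sum over both alleles.

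Embryonic kidneys were taken at E15.5 from 3 groups, each sequenced as 1 library of cells pooled from kidneys of more than 1 embryo. The paper names fewer embryos for the Enl-WT library than for the Enl-T1 library. It gives no number for the TDI-11055 library. Enl-WT embryos were Enl+/+ Wt1 GFPCre/+, Enl-T1 embryos were Enl flox-T1/+ Wt1 GFPCre/+, and the Enl-T1 TDI-11055 embryos had the Enl-T1 genotype and came from mothers given the drug orally at 100 mg/kg each day between E10.5 and E14.5. For the other libraries the titles give no treatment, and the paper calls these kidneys untreated. The treatment description mentions a vehicle, but none of the 3 libraries is vehicle-treated. Effects of the drug and of its daily dosing therefore cannot be told apart. ENL (Mllt1) is a chromatin reader of acylated histones, T1 is an insertion in its acyl-binding YEATS domain found in Wilms tumour, and TDI-11055 blocks that domain. The Wt1 GFPCre knock-in takes the place of 1 Wt1 copy, so all groups, the controls included, lack it. Cre acts in cells of the Wt1 lineage, which gives rise to the nephron and the stroma. Ureteric epithelium and endothelium arise outside that lineage. The T1 line was made in hybrid 129 and C57BL/6 embryonic stem cells and is described as kept on a B6 background. The tables do not assign cells to embryos or separate the T1 allele from the normal one, so neither litter effects nor the genotype of a library could be checked.

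Imprinted genes carry methylation marks set in the egg or the sperm, and in the offspring these marks at control regions decide which parental copy is active. Neighbouring imprinted genes often share one control region and form a domain. Many paternally expressed members (Igf2, Mest, Peg3, Dlk1) favour growth of the embryo, and several maternally expressed ones (Cdkn1c, H19, Grb10, Igf2r) restrain it. In the kidney the IGF2 and H19 domain is the best known, because loss of its imprint is frequent in Wilms tumour and underlies overgrowth with a raised tumour risk, and CDKN1C is needed for normal medulla and podocyte development.

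The control regions are rich in CpG, the dinucleotide that carries the methylation mark. The promoter stretches of Mest, Nnat and Plagl1 are shown because these genes' paternal expression goes with a methylated maternal promoter and because their levels carry much of what follows. Each is the 250 bases before a RefSeq transcription start on GRCm38.p6, plus strand, with CpG in capitals. Mest (the second of 3 starts by position, chr6:30737800-30738049) holds 14 CpG, Nnat (chr2:157559828-157560077) holds 12 and Plagl1 (chr10:13090582-13090831) holds 19.
Mest: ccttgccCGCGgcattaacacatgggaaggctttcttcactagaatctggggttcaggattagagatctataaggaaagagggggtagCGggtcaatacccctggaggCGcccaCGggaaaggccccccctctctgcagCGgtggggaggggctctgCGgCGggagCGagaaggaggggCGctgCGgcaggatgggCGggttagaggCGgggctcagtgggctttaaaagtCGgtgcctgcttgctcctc
Nnat: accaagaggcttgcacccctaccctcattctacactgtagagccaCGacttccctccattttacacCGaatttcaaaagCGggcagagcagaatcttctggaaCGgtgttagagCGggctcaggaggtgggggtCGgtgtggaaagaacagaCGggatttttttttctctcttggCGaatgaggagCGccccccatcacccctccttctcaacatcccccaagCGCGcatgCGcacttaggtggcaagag
Plagl1: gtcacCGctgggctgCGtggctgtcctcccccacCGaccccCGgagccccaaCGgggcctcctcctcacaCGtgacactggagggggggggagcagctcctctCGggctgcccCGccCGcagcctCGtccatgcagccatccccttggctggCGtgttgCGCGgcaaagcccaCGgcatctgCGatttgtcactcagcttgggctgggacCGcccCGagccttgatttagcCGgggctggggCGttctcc
Of the 34 members, 27 had an entry in the RefSeq promoter table and 7 did not (Peg10, H19, Rtl1, Sgce, Kcnq1, Impact and Cdkn1c). The median over the 27 members was 10 CpG in these 250 bases (for a gene with several starts, its richest), against 6 over all 27025 genes in the table. At least 10 CpG were found in 15 of 27 members (55.6%) and in 40.2% of all genes.

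The treated library is called the TDI-11055 library from here on, and values are given in the order Enl-WT, Enl-T1, TDI-11055. The libraries held 7186, 6575 and 6453 barcodes, of which 5233, 4144 and 2754 had 1000 to 6000 genes and no more than 10% mitochondrial UMIs. These limits are those of the study's methods. Depth differed, with medians of 5090, 9391 and 16930 UMIs (unique molecules counted) per cell. So did the ribosomal protein share (16.5%, 26.8% and 27.9%) and the mix of sexes, with cells holding Xist and no Y-linked UMI at 26.5%, 73.3% and 35.2%. Cells were placed in classes by clustering without the members and then by fixed markers, and a name ending in -like says that the class was named from those markers. NP1-like cells (Six2, Cited1) are the self-renewing nephron progenitors, NP2-like cells the committed ones, and Foxd1-like stroma the stromal progenitors at the edge of the kidney. Some clusters of the NP1-like, Foxd1-like and Ureteric tip-like classes were led by cell cycle genes, with 0 class markers among their 10 leading genes. Cluster N0, which had such markers, held 344, 169 and 192 NP1-like cells. Likewise, S4 held 140, 110 and 48 Foxd1-like cells, and U3 held 170, 90 and 138 Ureteric tip-like cells. The other cells of these classes were in the cell cycle clusters, whose part in the members' values was not tested. The Podocyte-like cells of Enl-T1 did not carry their name: the summed level of 8 podocyte markers was 11640 CPM in Enl-WT, 158.5 in Enl-T1 and 3274 with TDI-11055, so that class is described and not compared. The markers of NP1-like cells (1508, 540 and 1064 CPM within the class) and of Foxd1-like stroma (1750, 855 and 1308 CPM) were also lower in Enl-T1, and their part in the members' values was not tested.

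A level is given as CPM, the UMIs of a gene per 1000000 UMIs of the class in 1 library, with an exact Poisson interval at 95% that covers counting error only. A ratio is the quotient of 2 levels divided by that of the median gene (all genes with at least 5 CPM on average over both libraries), and a member is called higher or lower when its relative ratio is past a fold of 1.5. With 1 library per group there is no replicate and no test, so no difference can be set against the spread between kidneys. Fewer active cells in a class and less RNA per cell also cannot be told apart in a sum. Ratios moved with exonic length, with Spearman correlations across genes of -0.43 in NP1-like cells, -0.40 in Foxd1-like stroma, -0.51 in the ureteric epithelium and -0.34 in Endothelial-like cells for Enl-T1 over Enl-WT. The members are longer than most genes (median 5690 against 4732 exonic bases among those compared in NP1-like cells), so a length-adjusted log2 ratio, taken relative to genes of like length, is given where it changes a call.

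In the 3 libraries together, 31 of the 34 members reached 5 CPM on average in at least one class. Magel2 (77 UMIs in all kept cells), Mkrn3 (196) and Ascl2 (106) did not, and Rtl1 (50 UMIs), a retrotransposon-derived gene, passed through the Stroma-like class alone. The levels of many members differed between cell classes, as the plot of levels by cell class shows. Several of the highest levels below are those of Stroma-like cells, which rest on 39, 100 and 21 cells.

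**Figure D1:**
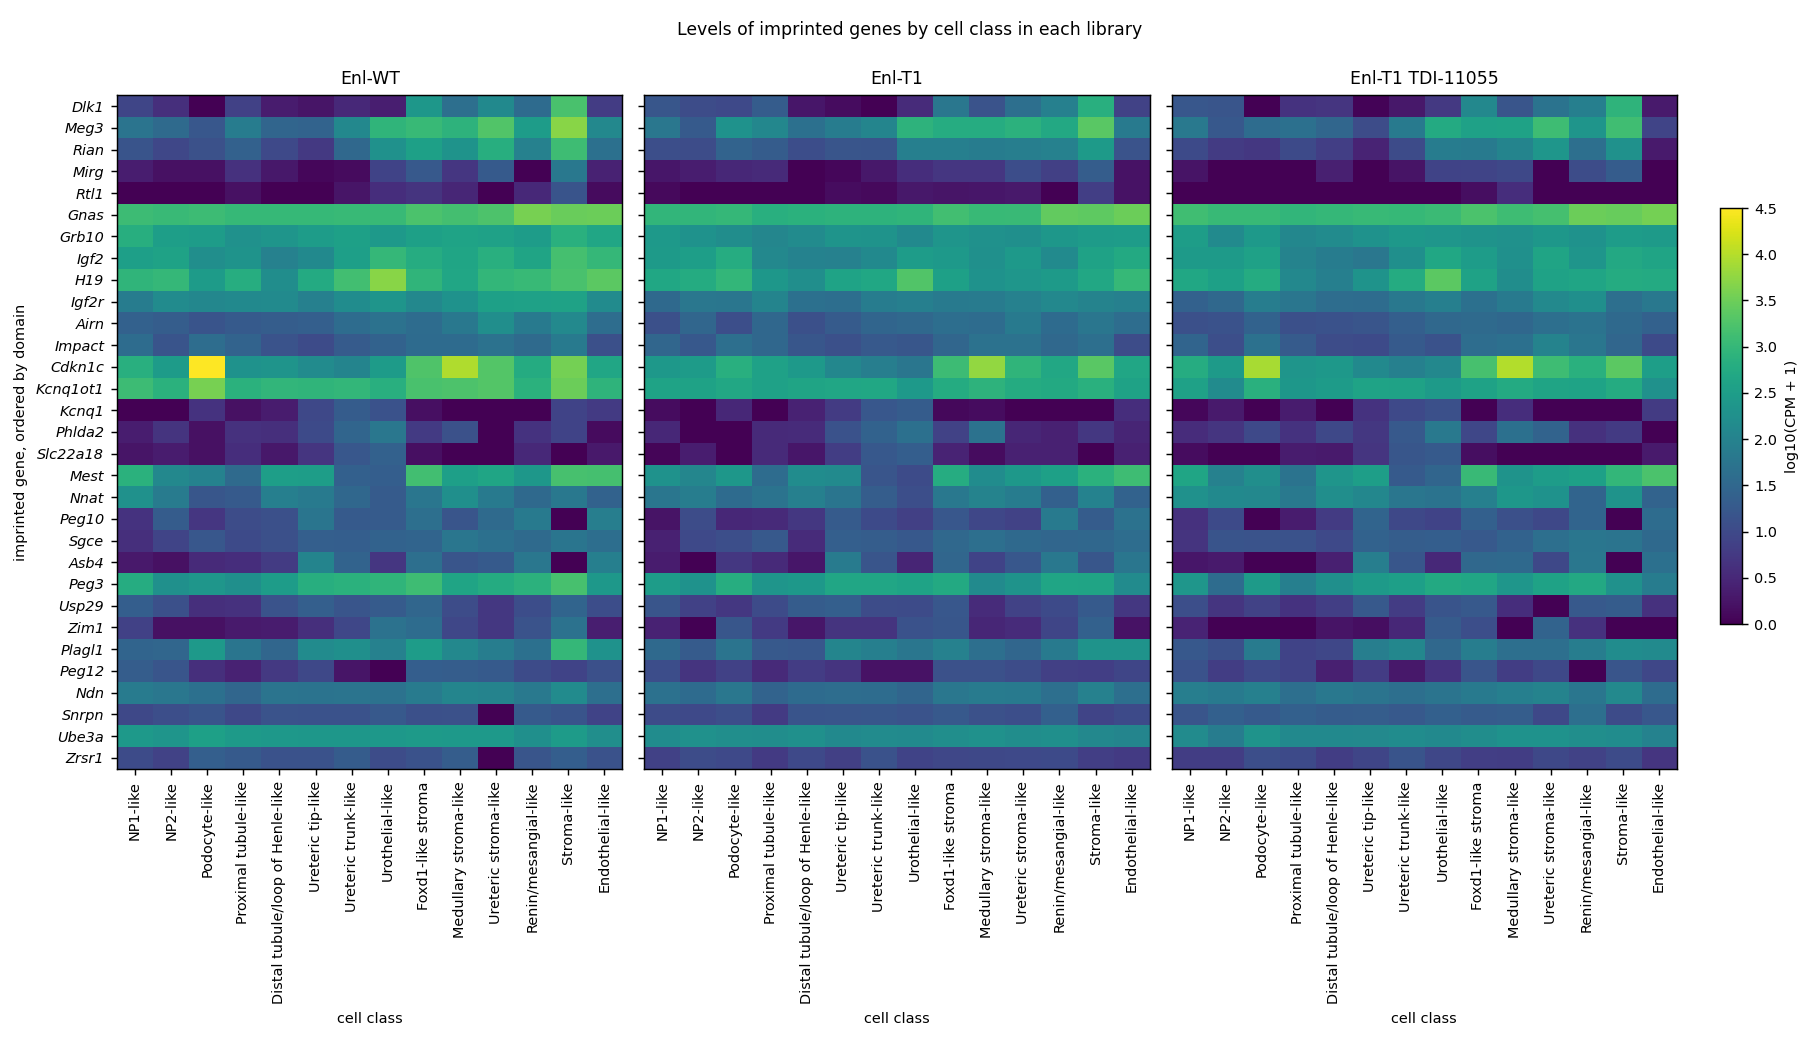
Level of each of 31 members (rows, ordered by domain) in 14 cell classes (columns) in each of the 3 libraries (panels), as log10(CPM + 1) on the colour scale; each cell of the plot is the summed count of 1 class in 1 library. Dlk1, Meg3 and Rian stand out in the stromal classes and Asb4 in Ureteric tip-like cells. Cdkn1c stands out in Medullary stroma-like cells and, except in Enl-T1, in Podocyte-like cells. Gnas, Grb10, Ndn and Ube3a are present in every class.

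The Kcnq1 domain on chromosome 7 holds Cdkn1c, encoding the cell cycle inhibitor p57, and the antisense RNA Kcnq1ot1, which silences its neighbours on the paternal copy. Cdkn1c (chr7:143458339-143461050) reached 30460 CPM in the Podocyte-like cells of Enl-WT. In Medullary stroma-like cells it stood at 9294 CPM in Enl-WT, 5860 CPM in Enl-T1 and 9738 CPM in the TDI-11055 library, and in Foxd1-like stroma at 1817, 1227 and 1548 CPM. By contrast, NP2-like cells held 288, 289.8 and 281 CPM and the Ureteric trunk-like cells 104, 82.5 and 91.5 CPM. Kcnq1ot1 was broad, from 699.6 CPM in Urothelial-like cells to 3735 CPM in Podocyte-like cells of Enl-WT. The other measured genes of the domain had their high levels elsewhere. Phlda2, a growth-restraining PH-domain gene, was high in Urothelial-like cells (60.9, 45.8 and 63.9 CPM), and Slc22a18, a membrane transporter, and Kcnq1, a potassium channel, were at 15.7, 16.1 and 14.7 CPM and 19.1, 15.8 and 8.79 CPM in Ureteric trunk-like cells against 0.770, 0.145 and 0.427 CPM and 0, 0.436 and 0.214 CPM in NP1-like cells.

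The Dlk1/Meg3 domain on chromosome 12 was stromal. Dlk1, a membrane-bound Notch-like ligand that holds precursors undifferentiated, was highest in Stroma-like cells (1622 CPM in Enl-WT, 691 CPM in Enl-T1 and 852 CPM in the TDI-11055 library) and stood at 239, 61.0 and 126 CPM in Foxd1-like stroma, against 7.70, 14.7 and 15.4 CPM in NP1-like cells. Its maternally expressed neighbours Meg3 and Rian, which are long non-coding RNAs that host small RNAs, were also highest in Stroma-like cells of Enl-WT, with Meg3 at 5039, 2239 and 1319 CPM and Rian at 1268, 278 and 185 CPM. Meg3 was also high in Urothelial-like cells (896, 819 and 560.3 CPM), where Dlk1 stood at 1.42, 2.52 and 4.65 CPM. Mirg, the third non-coding RNA of the row, stayed under 5 CPM in Enl-WT outside Foxd1-like, Ureteric stroma-like, Stroma-like and Urothelial-like cells.

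Igf2 and H19 lie next to each other on chromosome 7, use the same enhancers and are active on opposite copies. Both were widespread. Igf2, the growth factor, was highest in Enl-WT in Stroma-like cells (1497, 384 and 516 CPM), Urothelial-like cells (1001, 300.4 and 484 CPM) and Endothelial-like cells (974, 550.4 and 427 CPM). H19, a non-coding RNA that restrains growth, was highest in Enl-WT in Urothelial-like cells (4982, 1891 and 2340 CPM) and Endothelial-like cells (2341, 1050 and 572 CPM). Igf2r, which carries IGF2 to the lysosome, was highest in Enl-WT in Stroma-like (388, 103 and 43.8 CPM), Renin/mesangial-like (375, 123 and 171 CPM) and Ureteric stroma-like cells (367, 95.3 and 128 CPM) and low in NP1-like cells (76.0, 33.7 and 23.8 CPM). Airn, the antisense RNA that starts inside Igf2r, followed it in Enl-WT, with 168 CPM in Ureteric stroma-like cells and 23.9 in NP1-like cells.

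Genes of other domains also varied between classes. Mest, a hydrolase-like gene of mesoderm, was at 1484, 1279 and 1648 CPM in Endothelial-like cells, 1386, 617 and 1100 CPM in Foxd1-like stroma and 733, 194 and 449.8 CPM in NP1-like cells, but at 23.3, 14.2 and 18.1 CPM in Ureteric trunk-like cells. Within the ureteric epithelium it was higher in Ureteric tip-like cells, at 319, 139.5 and 326 CPM. Asb4, a ubiquitin ligase subunit of the Peg10 domain, was likewise at 107, 73.2 and 84.0 CPM in Ureteric tip-like cells against 25.6, 14.54 and 14.7 CPM in the trunk. Nnat, a small membrane proteolipid first known from neonatal brain, was highest in Enl-WT in NP1-like and Medullary stroma-like cells, with 188 and 174 CPM in Enl-WT. Plagl1, a zinc finger factor, was high in Stroma-like cells (998, 204 and 156 CPM) and low in NP1-like cells (27.2, 33.1 and 16.2 CPM).

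The remaining members varied less between classes. Gnas, which encodes the stimulatory G protein subunit, lay between 1028 CPM in Ureteric tip-like and 3715 CPM in Renin/mesangial-like cells of Enl-WT, and was at 3075, 3119 and 3682 CPM in Endothelial-like cells. Grb10, an adaptor that dampens insulin and IGF receptors, ranged in Enl-WT from 191 CPM in Proximal tubule-like cells to 721 in Stroma-like cells. Ube3a, a ubiquitin ligase, ranged from 168 CPM in Endothelial-like to 367 CPM in Podocyte-like cells there. Peg3, a zinc finger gene, was at 1266, 551 and 453 CPM in Foxd1-like stroma, 601, 311 and 229 CPM in NP1-like cells and 245, 147 and 76.6 CPM in Endothelial-like cells. Its neighbours Usp29 and Zim1 and the genes Snrpn, Peg12, Zrsr1, Impact and Sgce stayed under 100 CPM in every class of Enl-WT.

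The pattern over the classes was compared between members of the same domain and between other members. Over 14 classes, the correlation of log levels had a median of 0.716 in Enl-WT, 0.669 in Enl-T1 and 0.498 with TDI-11055 for 23 pairs of the same domain, and 0.257, 0.177 and 0.211 for 328 other pairs. The 14 points of a pair share their libraries and depth, so these are descriptions. They include the Podocyte-like class, which did not carry its name in Enl-T1, and classes of few cells. The medians of the libraries are therefore not set against each other. Meg3 and Rian were the most alike of the same-domain pairs (0.98, 0.97 and 0.99), and Cdkn1c and Slc22a18, which share the Kcnq1 domain, were the least alike (-0.64, -0.73 and -0.72).

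In the NP1-like nephron progenitors (671, 519 and 536 cells in Enl-WT, Enl-T1 and the TDI-11055 library), several abundant imprinted genes, among them Cdkn1c, Mest, Grb10 and Kcnq1ot1, were lower in Enl-T1 against Enl-WT. Together the members made up 0.723% of the class's UMIs in Enl-WT, 0.360% in Enl-T1 and 0.469% with TDI-11055. Of the 22 members with enough counts, 10 were lower in Enl-T1 past the fold and 2 were higher, where 14.1% of all 9926 genes were lower and 14.1% higher. The median relative log2 ratio of the members was -0.40, against 0 for all genes by construction, and -0.25 after adjustment for length, with 8 lower (without Igf2r and Peg3) and 3 higher (Meg3 added), where 10.2% and 12.4% of all genes were. Against Enl-T1, the TDI-11055 library had 4 of 22 members higher and 1 lower, where 6.59% of all genes were higher and 8.66% lower. Adjusted for length these were 5 higher, with Gnas added (log2 0.75), and 1 lower, where 5.17% and 7.25% of all genes were. Both comparisons use the Enl-T1 library, so they are not independent, and their values are given side by side.

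Cdkn1c stood out among the growth restrainers. Its level was 694 CPM (669 to 721) in Enl-WT, 246 CPM (235 to 258) in Enl-T1 and 598 CPM (583 to 614) in the TDI-11055 library. The relative ratio was 0.445 (0.418 to 0.473) for Enl-T1 over Enl-WT and 2.43 (2.31 to 2.57) for the TDI-11055 library over Enl-T1. The Enl-T1 library was therefore the low one and the other two lay close together. In CPM the interval of the TDI-11055 library lay below that of Enl-WT. The median gene, however, had a CPM ratio of 0.799 for the TDI-11055 library over Enl-WT, so this gap does not carry over to the relative scale. Cdkn1c stayed past the fold in all 17 alternative settings in both comparisons. In cluster N0, a cluster led by Rspo3 and Cited1 that held 344 of the 671 Enl-WT cells and 169 of the 519 Enl-T1 cells, its relative log2 ratio was -1.52 for Enl-T1 over Enl-WT.

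Mest and Nnat, both paternally expressed, were also lowest in Enl-T1. Mest was at 733 CPM (706 to 760.4) in Enl-WT, 194 CPM (184 to 205) in Enl-T1 and 449.8 CPM (436 to 464) in the TDI-11055 library. Its relative ratios were 0.332 (0.311 to 0.355) and 2.32 (2.18 to 2.47) in the 2 comparisons, past the fold in all 17 alternatives of each. Nnat was at 188 CPM in Enl-WT, 58.2 CPM in Enl-T1 and 188 CPM in the TDI-11055 library, with ratios of 0.389 (0.343 to 0.440) and 3.24 (2.90 to 3.62). Its call for Enl-T1 over Enl-WT ended when the whole nephron lineage was taken in place of the class, at a log2 ratio of -0.38. The whole lineage brings in other classes, whose shares differ between the libraries. NP1-like cells were 671 of 2079 nephron cells in Enl-WT and 519 of 1016 in Enl-T1, so a lineage ratio is not a check of the class alone. For both genes the Enl-T1 level was the lowest. For Nnat the Enl-WT and TDI-11055 intervals overlapped in CPM, and the relative ratio of the TDI-11055 library over Enl-WT was 1.25 (1.15 to 1.37). Ndn, a member of the MAGE family from the Snrpn domain, was also higher in the TDI-11055 library than in Enl-T1 (73.7, 47.1 and 82.8 CPM, relative ratio 1.76 (1.55 to 2.01)), but its Enl-T1 over Enl-WT ratio of 0.802 (0.682 to 0.943) was not past the fold. These 4 genes are the members called higher in the TDI-11055 library in NP1-like cells before adjustment for length.

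The other members lower in Enl-T1 were not called higher in the TDI-11055 library. Kcnq1ot1 (chr7:143203458-143296549, antisense within Kcnq1) was at 1225 CPM in Enl-WT, 413 CPM in Enl-T1 and 382 CPM in the TDI-11055 library, with ratios of 0.423 (0.404 to 0.443) and 0.926 (0.882 to 0.974). Its 93092 annotated exonic bases put it at the end of the length range, and its length-adjusted log2 ratio was -0.74 against -1.24 unadjusted. Grb10 was at 649 CPM in Enl-WT, 259.6 CPM in Enl-T1 and 324 CPM in the TDI-11055 library (ratios 0.501 (0.472 to 0.533) and 1.25 (1.18 to 1.33)), so its TDI-11055 level lay between the other two, and its call ended over the whole nephron lineage (log2 -0.36). Igf2r was at 76.0 CPM in Enl-WT, 33.7 CPM in Enl-T1 and 23.8 CPM in the TDI-11055 library, lowest in the TDI-11055 library, with ratios of 0.557 (0.467 to 0.663) and 0.709 (0.587 to 0.855). Airn and Peg12 were lower in Enl-T1 with fewer counts, at relative ratios of 0.613 (0.447 to 0.833) and 0.651 (0.465 to 0.901), calls that ended with thinned cells and over the whole nephron lineage.

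The Igf2/H19 pair parted in this class and in some others. Igf2 was at 343 CPM (325 to 362) in Enl-WT, 283 CPM (270.5 to 296) in Enl-T1 and 284 CPM (273 to 295) in the TDI-11055 library, and its relative ratio for Enl-T1 over Enl-WT was 1.03 (0.964 to 1.11), an interval that includes 1. H19 was at 892 CPM in Enl-WT, 473 CPM in Enl-T1 and 481 CPM in the TDI-11055 library with a ratio of 0.665 (0.634 to 0.698), at the edge of the fold and past it in 9 of 17 alternatives. There were accordingly 0.384 Igf2 UMIs per H19 UMI in Enl-WT (0.361 to 0.4095), 0.598 in Enl-T1 (0.565 to 0.633) and 0.590 in the TDI-11055 library (0.562 to 0.619). Cdkn1c and Igf2, which act against each other on growth, stood at 2.03, 0.871 and 2.11 Cdkn1c UMIs per Igf2 UMI in the same order. Peg3 was at 601, 311 and 229 CPM, with ratios of 0.649 (0.611 to 0.688) and, inside the fold, 0.737 (0.694 to 0.783), and its call for Enl-T1 over Enl-WT ended after the adjustment for length, at a log2 ratio of -0.24.

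Dlk1 and Plagl1 were the 2 members higher in Enl-T1. Dlk1 had few counts (30, 101 and 144 UMIs) at 7.70, 14.7 and 15.4 CPM, with a ratio of 2.38 (1.58 to 3.72), a call that ended with the stricter cell filter (log2 0.20). Plagl1 was at 27.2 CPM in Enl-WT, 33.1 CPM in Enl-T1 and 16.2 CPM in the TDI-11055 library, with ratios of 1.53 (1.21 to 1.94) and 0.492 (0.397 to 0.606). Its higher level in Enl-T1 did not hold under every setting: with cells thinned to 2000 UMIs the log2 ratio was -0.089, and over the whole nephron lineage -0.63. Members with ratios for Enl-T1 over Enl-WT inside the fold were Meg3, Rian, Ndn, Snrpn, Impact, Usp29, Gnas, Ube3a, Zrsr1 and Igf2.

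**Figure D2:**
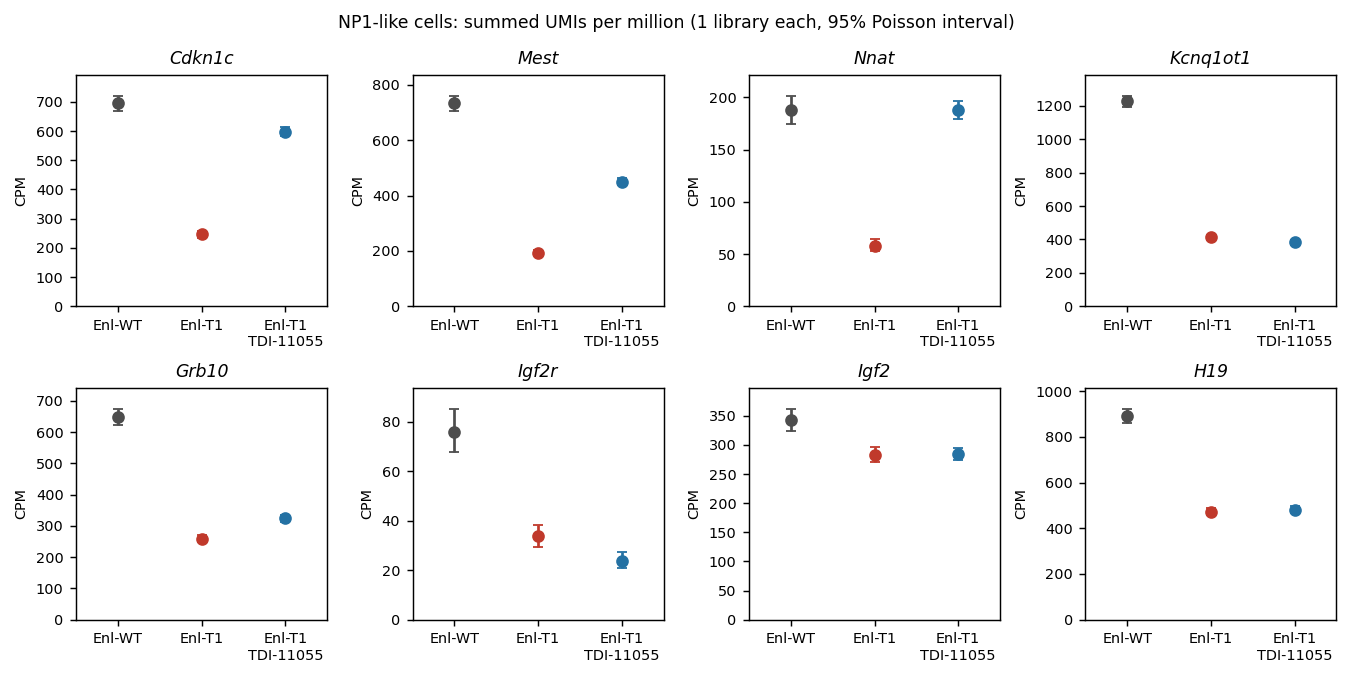
Levels of 8 members in NP1-like cells in CPM (y axis, starting at 0) for the 3 libraries (x axis), 1 point per library with its 95% Poisson interval. Cdkn1c, Mest and Nnat are lowest in Enl-T1, Kcnq1ot1 and Igf2r stay low in the TDI-11055 library, and Igf2 lies between 283 and 343 CPM in all 3.

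The share of NP1-like cells with a UMI is given at equal depth. With 2000 UMIs per cell this share is largely set by the level itself. It therefore does not tell fewer active cells apart from less RNA per cell. With each cell thinned to 2000 UMIs, the share with a Mest UMI was 70.7% (67.1 to 74.1) in the Enl-WT library, 29.3% (25.4 to 33.5) in Enl-T1 and 48.0% (43.7 to 52.4) in the TDI-11055 library. Nnat was found in 31.7% (28.2 to 35.4), 10.2% (7.76 to 13.2) and 29.4% (25.5 to 33.4). Cdkn1c was found in 63.2% (59.4 to 66.8), 35.3% (31.2 to 39.6) and 55.9% (51.6 to 60.1), while Igf2 was found in 45.0% (41.1 to 48.8), 40.4% (36.1 to 44.7) and 42.1% (37.8 to 46.4). Unthinned cells, with median depths of 5211, 12670 and 19270 UMIs, gave 89.7%, 72.2% and 82.3% for Mest. In Ureteric trunk-like cells, where Mest was low, the thinned shares were 3.86%, 2.67% and 4.08%. Nnat was itself called higher with TDI-11055 in that class (2.75 (2.09 to 3.70)), so its background was taken, after its values were seen, from an unnamed ureteric cluster led by Tmem213 and Spink8, where 2.65%, 1.54% and 2.63% of thinned cells had a Nnat UMI.

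Cycling and other NP1-like cells were compared within each library, which leaves out any difference between libraries. Cells with at least 2 of 5 cycling genes (Mki67, Top2a, Ube2c, Cenpf, Hmmr) after thinning made up 262 of 665 cells in Enl-WT, 214 of 518 in Enl-T1 and 201 of 535 in the TDI-11055 library. Cdkn1c was lower in the cycling cells of Enl-WT (473 against 913 CPM) and of the TDI-11055 library (475 against 656 CPM), and nearer to even in Enl-T1 (231 against 261 CPM). Mest was lower in cycling cells in all 3 libraries, at 531 against 934 CPM in Enl-WT, 153 against 233 CPM in Enl-T1 and 348 against 497 CPM in the TDI-11055 library. Both genes were thus lower in Enl-T1 against Enl-WT in cycling and in other cells alike. Dlk1 was the reverse, at 22.0 CPM in cycling and 7.86 CPM in other cells of Enl-T1.

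In Foxd1-like stroma (361, 376 and 164 cells) the members lower in Enl-T1 included the domains that mark stroma. The members made up 1.24% of UMIs in Enl-WT, 0.665% in Enl-T1 and 0.732% with TDI-11055. Of 28 members compared, 12 were lower in Enl-T1 against Enl-WT and 2 were higher, where 13.2% of all 10218 genes were lower and 15.1% higher. Their median relative log2 ratio was -0.55, and -0.34 after adjustment for length. The adjusted counts were again 12 lower but of partly different members, with Peg3 and Usp29 inside the fold and Cdkn1c and Peg12 past it, and 1 higher (Sgce), where 10.0% and 13.6% of all genes were. Against Enl-T1, the TDI-11055 stroma had 3 of 28 higher and 3 lower, with 12.3% and 15.4% of all genes. Adjusted for length the balance was 6 higher (with Peg10, Usp29 and Gnas added, log2 0.70, 0.61 and 0.59) and 0 lower, where 9.80% and 13.0% of all genes were. The fixed dissociation-response list (Fos, Egr1 and others) was higher in the Enl-T1 stroma, past the fold in 8 of 9 genes, and its part in the members' values was not tested.

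Rian, Dlk1, Mirg and Plagl1 had the lowest ratios for Enl-T1 over Enl-WT in this class. Dlk1 was at 239 CPM (217 to 262) in Enl-WT, 61.0 CPM (53.4 to 69.3) in Enl-T1 and 126 CPM (111 to 142) in the TDI-11055 library, with ratios of 0.305 (0.259 to 0.358) for Enl-T1 over Enl-WT and 2.09 (1.74 to 2.50) for the TDI-11055 library over Enl-T1. Rian was at 358 CPM in Enl-WT, 85.4 CPM in Enl-T1 and 67.8 CPM in the TDI-11055 library, with ratios of 0.285 (0.248 to 0.326) and 0.806 (0.656 to 0.985). Plagl1 was at 309 CPM in Enl-WT, 92.2 CPM in Enl-T1 and 79.9 CPM in the TDI-11055 library, with ratios of 0.357 (0.311 to 0.408) and 0.878 (0.726 to 1.06). Dlk1, Rian and Plagl1 were lower in Enl-T1 past the fold in all 15 alternatives. For Dlk1 the TDI-11055 interval lay between those of the other libraries, and for Rian and Plagl1 it overlapped that of Enl-T1.

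For Enl-T1 over Enl-WT the ratio of Meg3 was nearer to 1 than those of Dlk1, Rian and Mirg. Meg3 was at 1055 CPM in Enl-WT, 608 CPM in Enl-T1 and 378 CPM in the TDI-11055 library, with a ratio of 0.688 (0.647 to 0.731) for Enl-T1 over Enl-WT, inside the fold. Against Enl-T1 the TDI-11055 library had a ratio of 0.630 (0.581 to 0.684), a call that ended after the adjustment for length (log2 -0.21). Malat1 and Neat1, other long RNAs kept in the nucleus, were lower too in that comparison (0.575 (0.565 to 0.585) and 0.277 (0.150 to 0.463)). The number of Meg3 UMIs per Rian UMI was 2.94 in Enl-WT (2.69 to 3.22), 7.12 in Enl-T1 (6.33 to 8.02) and 5.57 in the TDI-11055 library (4.65 to 6.71), so these neighbouring RNAs did not keep one proportion. Mirg followed Rian on few counts, with 31, 16 and 15 UMIs and a ratio of 0.308 (0.153 to 0.563). It was the third member called higher in the TDI-11055 library in this class, beside Dlk1 and Mest, at 1.71 (0.802 to 3.76), an interval that includes 1.

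Igf2 and H19 were lower together in this class, unlike in NP1-like cells. Igf2 was at 617 CPM (582 to 654) in Enl-WT, 262 CPM (246 to 279) in Enl-T1 and 311 CPM (287 to 336) in the TDI-11055 library and H19 at 884 CPM in Enl-WT, 355 CPM in Enl-T1 and 397 CPM in the TDI-11055 library. Their ratios for Enl-T1 over Enl-WT were 0.507 (0.465 to 0.552) and 0.479 (0.446 to 0.515), and for the TDI-11055 library over Enl-T1 1.20 (1.09 to 1.33) and 1.14 (1.04 to 1.24). The Igf2 UMIs per H19 UMI stayed at 0.698 (0.646 to 0.753), 0.738 (0.679 to 0.801) and 0.782 (0.704 to 0.868). The pair thus kept nearly one proportion while both levels were lower.

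Mest and the Peg3 domain were lower as well. Mest was at 1386 CPM (1333 to 1441) in Enl-WT, 617 CPM (592 to 642) in Enl-T1 and 1100 CPM (1055 to 1146) in the TDI-11055 library, with ratios of 0.531 (0.502 to 0.562) and 1.81 (1.71 to 1.92), past the fold in all 15 alternatives of both comparisons. Peg3 was at 1266 CPM in Enl-WT, 551 CPM in Enl-T1 and 453 CPM in the TDI-11055 library (ratio 0.520 (0.490 to 0.551), length-adjusted log2 -0.55), Zim1, a maternally expressed zinc finger gene beside it, at 38.5, 15.2 and 11.1 CPM (0.476 (0.328 to 0.678)), and Usp29 at 29.8, 15.8 and 17.3 CPM (0.635 (0.431 to 0.928)). Neither Peg3 nor its neighbours were called higher in the TDI-11055 library before adjustment for length. The retrotransposon-derived Peg10 was at 42.3, 15.51 and 22.6 CPM with a ratio of 0.441 (0.307 to 0.622), while Sgce, which shares its promoter region and encodes a sarcoglycan, was at 27.6, 32.6 and 17.3 CPM and was lower in the TDI-11055 library than in Enl-T1 (0.542 (0.361 to 0.787), length-adjusted log2 -0.58). Peg10 UMIs per Sgce UMI were 1.53 in Enl-WT, 0.476 in Enl-T1 and 1.31 with TDI-11055.

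Within the Kcnq1 domain the stroma differed from the progenitors. Cdkn1c was at 1817 CPM in Enl-WT, 1227 CPM in Enl-T1 and 1548 CPM in the TDI-11055 library, and its ratio for Enl-T1 over Enl-WT was 0.807 (0.771 to 0.844), inside the fold, with a length-adjusted log2 ratio of -0.61 past it. Kcnq1ot1 was at 1594 CPM in Enl-WT, 592 CPM in Enl-T1 and 396 CPM in the TDI-11055 library, with ratios of 0.443 (0.419 to 0.468) and 0.678 (0.625 to 0.735), and a length-adjusted log2 ratio of -0.72 in the first. The 2 members higher in Enl-T1 were low in count and inside the fold once adjusted for length, Snrpn, a splicing protein gene (21, 65 and 38 UMIs, ratio 1.78 (1.08 to 3.09)), and Phlda2 (9, 25 and 17 UMIs, ratio 1.59 (0.726 to 3.92), with an interval that includes 1). Among the cells with only Y-linked UMIs of the sex markers the Snrpn log2 ratio was -0.082. Igf2r was lower in the TDI-11055 library than in Enl-T1 (0.657 (0.513 to 0.833), length-adjusted log2 -0.38), and Gnas, Ndn, Grb10, Airn, Nnat, Impact, Asb4, Ube3a, Zrsr1 and Peg12 stayed inside the fold in both comparisons before adjustment for length.

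**Figure D3:**
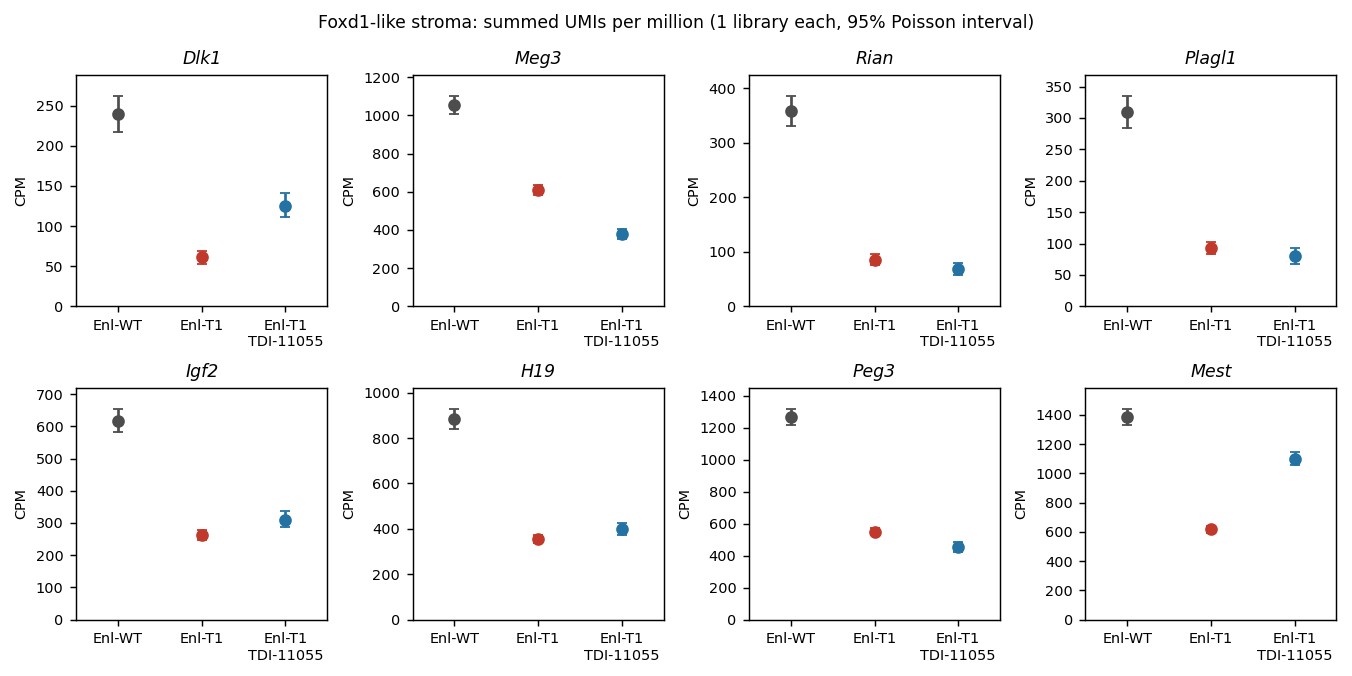
Levels of 8 members in Foxd1-like stroma in CPM (y axis, starting at 0) for the 3 libraries (x axis), 1 point per library with its 95% Poisson interval. All 8 are lower in Enl-T1 against Enl-WT, and Dlk1 and Mest are the 2 whose TDI-11055 points lie well above their Enl-T1 points, at 126 and 1100 CPM.

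The ureteric epithelium (1647, 1119 and 945 cells), which lies outside the Wt1 lineage, also held members past the fold. Of 27 compared, 5 were lower and 3 higher in Enl-T1 against Enl-WT, where 10.2% of all genes were lower and 13.0% higher, and the median relative log2 ratio was -0.29. After adjustment for length the median was -0.16, with 6 lower (Cdkn1c, H19 and Nnat added, Kcnq1ot1 and Igf2r inside the fold) and 2 higher (Meg3 and Rian), where 6.83% and 9.81% of all genes were. The TDI-11055 library had 4 of 26 higher and 6 lower than Enl-T1, with 7.21% and 10.0% of all genes. Adjusted for length these were 4 and 7, with Airn added to the lower ones (log2 -0.65), where 6.19% and 9.69% of all genes were.

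Mest, higher in Ureteric tip-like than in trunk-like cells, was at 170.3 CPM (162 to 178) in Enl-WT, 58.1 CPM (54.2 to 62.1) in Enl-T1 and 201 CPM (194 to 207) in the TDI-11055 library. Its ratios were 0.421 (0.387 to 0.456) for Enl-T1 over Enl-WT and 3.41 (3.17 to 3.68) for the TDI-11055 library over Enl-T1, past the fold in all 14 alternatives of each. Within Ureteric tip-like cells alone the ratios were 0.529 (0.483 to 0.579) and 2.37 (2.19 to 2.58). Peg10 was at 40.9 CPM in Enl-WT, 11.3 CPM in Enl-T1 and 20.4 CPM in the TDI-11055 library (ratios 0.343 (0.284 to 0.410) and 1.77 (1.47 to 2.14)) and Asb4 at 69.7 CPM in Enl-WT, 34.6 CPM in Enl-T1 and 61.3 CPM in the TDI-11055 library (ratios 0.612 (0.545 to 0.686) and 1.75 (1.57 to 1.94)), which share the Peg10 domain. In all 3 the Enl-T1 library was the lowest over the epithelium. Ureteric tip-like cells made up 753 of 1647, 352 of 1119 and 448 of 945 cells of the epithelium, lowest in Enl-T1 as well. Within them Peg10 was lower in Enl-T1 (0.399 (0.310 to 0.505)) and at the edge of the fold but not past it with TDI-11055 (log2 0.58), and Asb4 was inside the fold in both comparisons (0.825 (0.720 to 0.944) and 1.16 (1.03 to 1.32)). How far the share of tip cells set the ratios over the epithelium was not tested. Nnat was at 49.2, 30.8 and 98.4 CPM, inside the fold for Enl-T1 over Enl-WT (0.772 (0.679 to 0.878)) but past it once adjusted for length (log2 -0.78), and higher in the TDI-11055 library than in Enl-T1 (3.15 (2.84 to 3.50)).

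Over the whole epithelium Meg3, Phlda2 and Slc22a18 had the opposite order, with relative ratios past the fold upward in Enl-T1 and downward in the TDI-11055 library. Meg3 was at 129.9 CPM in Enl-WT, 254 CPM in Enl-T1 and 63.3 CPM in the TDI-11055 library, with ratios of 2.41 (2.26 to 2.56) and 0.246 (0.231 to 0.263). Urothelial-like cells made up 121 of 1647, 222 of 1119 and 48 of 945 cells of the epithelium, their marker sum (Urothelial-like list, 6 genes) was 109, 518 and 45.2 CPM over the epithelium, and Meg3 within them was at 896, 819 and 560.3 CPM. Within Ureteric trunk-like cells Meg3 was at 125, 113 and 68.9 CPM (ratios 1.11 (0.949 to 1.29) and 0.592 (0.505 to 0.693)), so the higher Enl-T1 level of the whole epithelium was not past the fold there. In Ureteric tip-like cells it was at 26.1, 75.2 and 10.3 CPM (ratios 3.48 (2.85 to 4.29) and 0.140 (0.111 to 0.173)). Rian, Phlda2, Slc22a18 and Kcnq1 were lower in the TDI-11055 library over the epithelium, at ratios of 0.304 (0.253 to 0.362), 0.410 (0.346 to 0.484), 0.649 (0.530 to 0.794) and 0.449 (0.353 to 0.565). Phlda2 and Slc22a18 were higher in Enl-T1 against Enl-WT (1.63 (1.38 to 1.93) and 1.70 (1.35 to 2.16)), calls that ended after adjustment for length (log2 0.10 and 0.34). These genes are high in urothelial or trunk cells, and how far the mix of cells set their ratios was not tested. Slc22a18 was past the fold in 0 of the 2 classes where it could be compared, in both comparisons. Phlda2 was higher in Enl-T1 in 3 of 6 classes, and in the TDI-11055 library it was lower in 2 and higher in 2 of 7. Adjusted for length it was higher in 1 and lower in 2 of the 6, and lower in 1 and higher in 2 of the 7. Within Urothelial-like cells its CPM was lowest in Enl-T1.

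Of the remaining genes in the epithelium, Cdkn1c was at 132, 83.0 and 122 CPM, with ratios of 0.774 (0.716 to 0.836) and 1.45 (1.35 to 1.55), both inside the fold, and with a length-adjusted log2 ratio of -0.70 past it in the first. H19 was at 1320 CPM in Enl-WT, 832 CPM in Enl-T1 and 496 CPM in the TDI-11055 library, lower in the TDI-11055 library than in Enl-T1 (0.588 (0.572 to 0.604)) and, once adjusted for length, also lower for Enl-T1 over Enl-WT (log2 -0.61). Rian was higher for Enl-T1 over Enl-WT only after that adjustment (log2 0.87). Igf2 was at 305, 170.1 and 129 CPM with ratios of 0.688 (0.652 to 0.725) and 0.745 (0.704 to 0.788), both inside the fold. Kcnq1ot1 and Igf2r were lower in Enl-T1, at 0.558 (0.539 to 0.576) and 0.633 (0.583 to 0.688). After the adjustment for length neither was past the fold, with log2 ratios of -0.40 and -0.42.

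Endothelial-like cells (394, 256 and 115 cells) are also outside the Wt1 lineage. Of 25 members, 5 were lower and 2 higher in Enl-T1 against Enl-WT, where 11.9% of all genes were lower and 13.2% higher. The median relative log2 ratio was -0.26. After adjustment for length it was -0.07, with 4 lower and 1 higher, where 10.46% and 11.25% of all genes were. The TDI-11055 library had 7 of 22 past the fold against Enl-T1, 6 of them lower, where 27.0% of all genes were past it in either direction. Adjusted for length, 5 were lower and 1 (Gnas, log2 0.64) higher, where 12.8% and 8.93% of all genes were. H19 was lower at each step, at 2341 CPM (2286 to 2397) in Enl-WT, 1050 CPM (1015 to 1087) in Enl-T1 and 572 CPM (537 to 608) in the TDI-11055 library, with ratios of 0.557 (0.534 to 0.580) and 0.568 (0.529 to 0.610). Kcnq1ot1 was at 848 CPM in Enl-WT, 383 CPM in Enl-T1 and 189.6 CPM in the TDI-11055 library, with ratios of 0.561 (0.523 to 0.601) and 0.517 (0.456 to 0.584), both inside the fold once adjusted for length (log2 -0.54 and -0.46). Usp29 and Zrsr1 were lower in Enl-T1 (0.520 (0.250 to 0.986) and 0.467 (0.233 to 0.853)), and Peg3 and Airn were lower in the TDI-11055 library than in Enl-T1 (0.546 (0.447 to 0.662) and 0.630 (0.432 to 0.897)), Peg3 not after adjustment for length (log2 -0.44). Snrpn was higher at each step (1.68 (0.929 to 3.14) and 1.68 (0.970 to 2.95)), inside the fold once adjusted for length. Mest (1484, 1279 and 1648 CPM), which passed the fold in both comparisons in the other 3 groups, stayed inside it here, with ratios of 1.07 (1.02 to 1.12) and 1.34 (1.28 to 1.41). Cdkn1c (458, 463 and 330.4 CPM) was inside the fold in both comparisons, but lower in the TDI-11055 library than in Enl-T1 once adjusted for length (log2 -0.72).

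In Endothelial-like cells, Meg3 and Rian had the lowest ratios of the TDI-11055 library to Enl-T1. Meg3 had few counts there, with 357, 225 and 13 UMIs (124, 70.8 and 7.38 CPM) and a ratio to Enl-T1 of 0.112 (0.0571 to 0.190). Rian had 130, 41 and 2 UMIs, a ratio of 0.359 (0.244 to 0.509) for Enl-T1 over Enl-WT and of 0.107 (0.0108 to 0.354) for the TDI-11055 library over Enl-T1. The summed markers of the Stroma-like list in these cells were 70.9, 124.5 and 5.11 CPM in the same order, and stromal cells held far more Meg3 than endothelial ones. The part of stromal RNA or doublets in the Meg3 and Rian ratios was not tested. Malat1 and Neat1 were lower in the TDI-11055 library as well (0.498 (0.488 to 0.509) and 0.328 (0.234 to 0.447)). Dlk1 had 15, 21 and 2 UMIs and a ratio of 1.57 (0.776 to 3.29) for Enl-T1 over Enl-WT, an interval that includes 1.

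**Figure D4:**
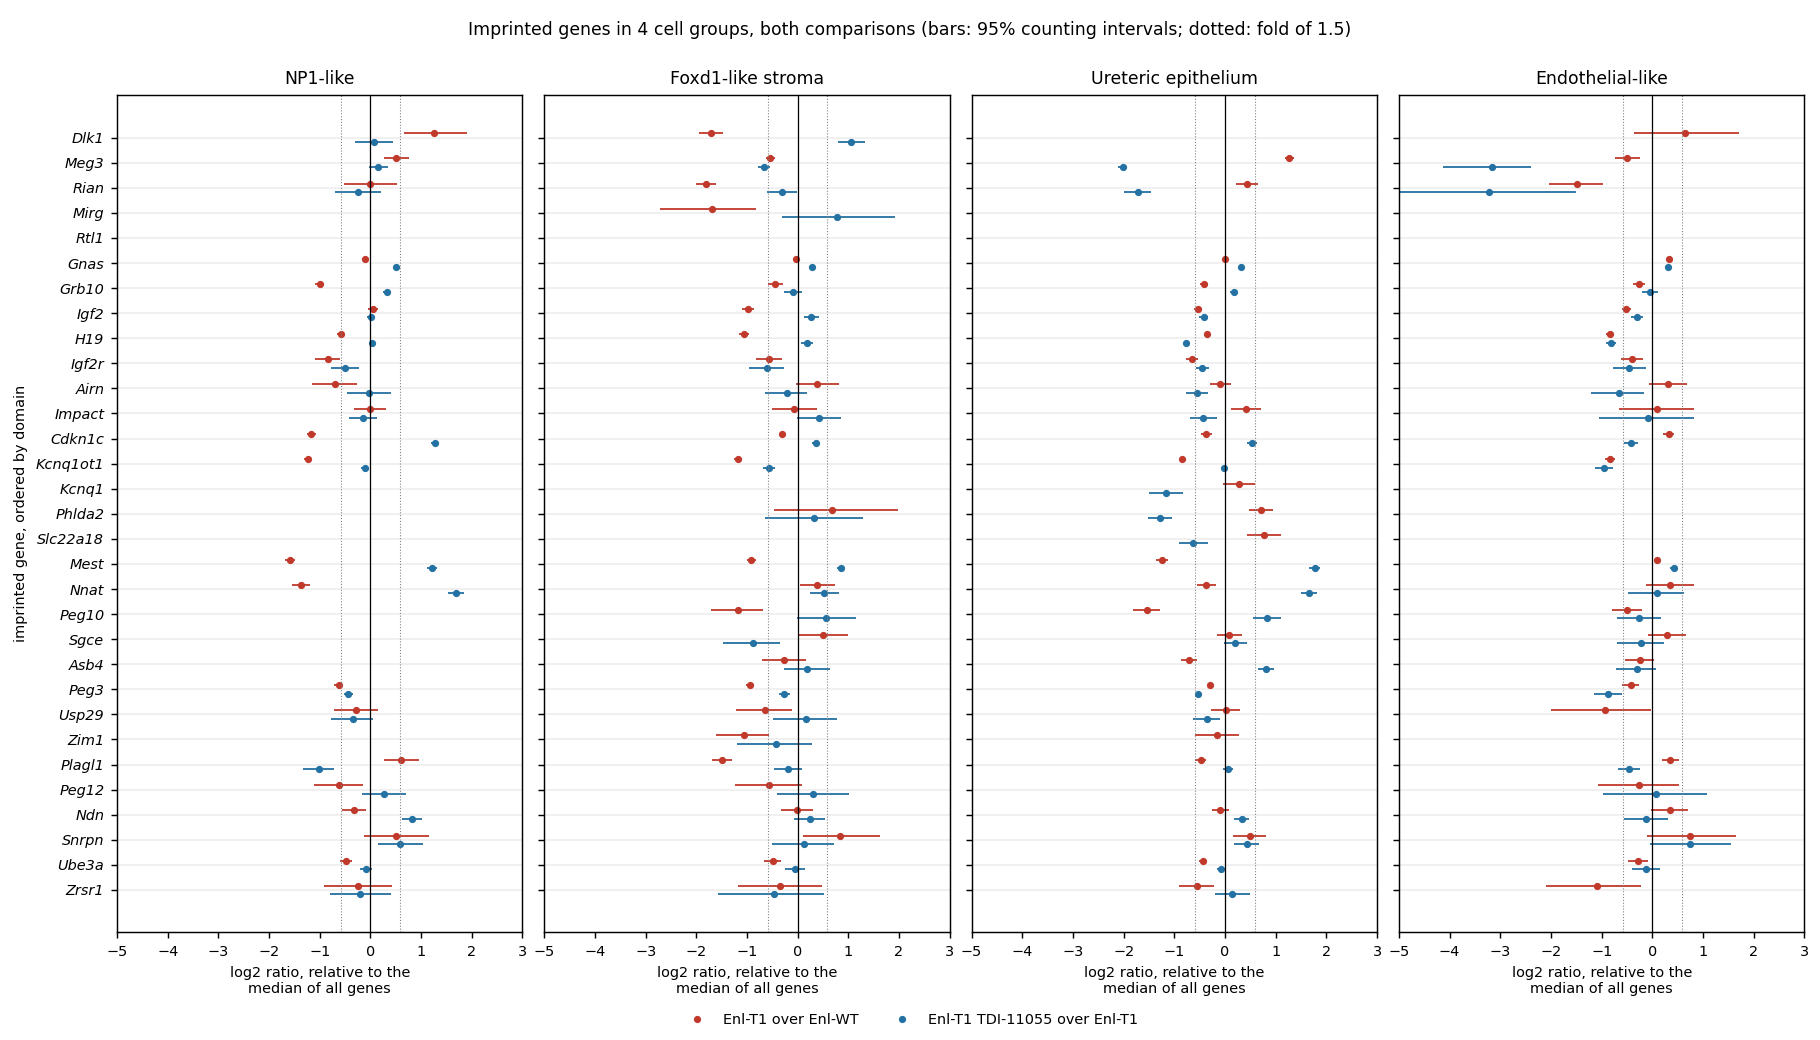
Relative log2 ratio (x axis, 0 is the median of all genes) of each member compared (y axis, ordered by domain) in 4 cell groups (panels), red for Enl-T1 over Enl-WT and blue for the TDI-11055 library over Enl-T1; lines are 95% counting intervals and dotted lines a fold of 1.5, and the line of Rian in Endothelial-like cells runs past the axis. Cdkn1c, Mest and Nnat have red points on the left and blue points on the right in NP1-like cells, and in Endothelial-like cells Mest and Gnas lie inside the dotted lines.

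Across the 13 classes compared, some members moved the same way in nearly all of them. Each class counts equally here, although some are small. The TDI-11055 library held 12 Ureteric stroma-like, 17 Renin/mesangial-like, 21 Stroma-like and 28 Medullary stroma-like cells. Enl-T1 held 34 Proximal tubule-like and 57 NP2-like cells. For Enl-T1 over Enl-WT, 17.6% of all gene values over these classes were lower and 18.3% higher, and 15.2% were lower after adjustment for length. Kcnq1ot1 was lower past the fold in 12 of 13 classes and under the median gene in all 13, although after adjustment for length it was past the fold in 5. H19 was lower in 10 of 13 and Igf2 in 7 of 13, and adjusted for length in 11 and 7. Igf2r was lower in 10 of 13 (7 adjusted for length) and Grb10 in 5 of 13 (2 adjusted for length), and Grb10 was under the median gene in all 13. Mest was lower in 7 of 13 (8 adjusted for length) and higher in 1. Peg10 was lower in 8 of the 12 classes where it could be compared (6 adjusted for length). In contrast, Ndn and Gnas were past the fold in 0 of 13 classes.

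The classes differed in the direction of Dlk1 and Cdkn1c. Dlk1 was lower in 4 classes, all of them stromal (Foxd1-like, Medullary stroma-like, Ureteric stroma-like and Stroma-like), and higher in 5, where NP1-like, NP2-like, Proximal tubule-like, Renin/mesangial-like and Endothelial-like cells had levels of 14.7, 10.1, 19.3, 89.0 and 6.60 CPM in Enl-T1. Cdkn1c was lower in 3 classes, higher in 1 and inside the fold in the others. After adjustment for length it was lower in 6 and higher in 1. For the TDI-11055 library over Enl-T1, 14.1% of all gene values were higher and 16.4% lower (14.8% adjusted for length). Nnat was higher in 9 of 13 classes (8 adjusted for length) and lower in none. Ndn and Mest were each higher in 5 (4 adjusted for length) and lower in none. Kcnq1ot1 was lower in 5 and higher in none, but past the fold in neither direction in any class once adjusted for length. Gnas was above the median gene in all 13 classes and past the fold in none before adjustment for length, but higher in 7 after it.

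**Figure D5:**
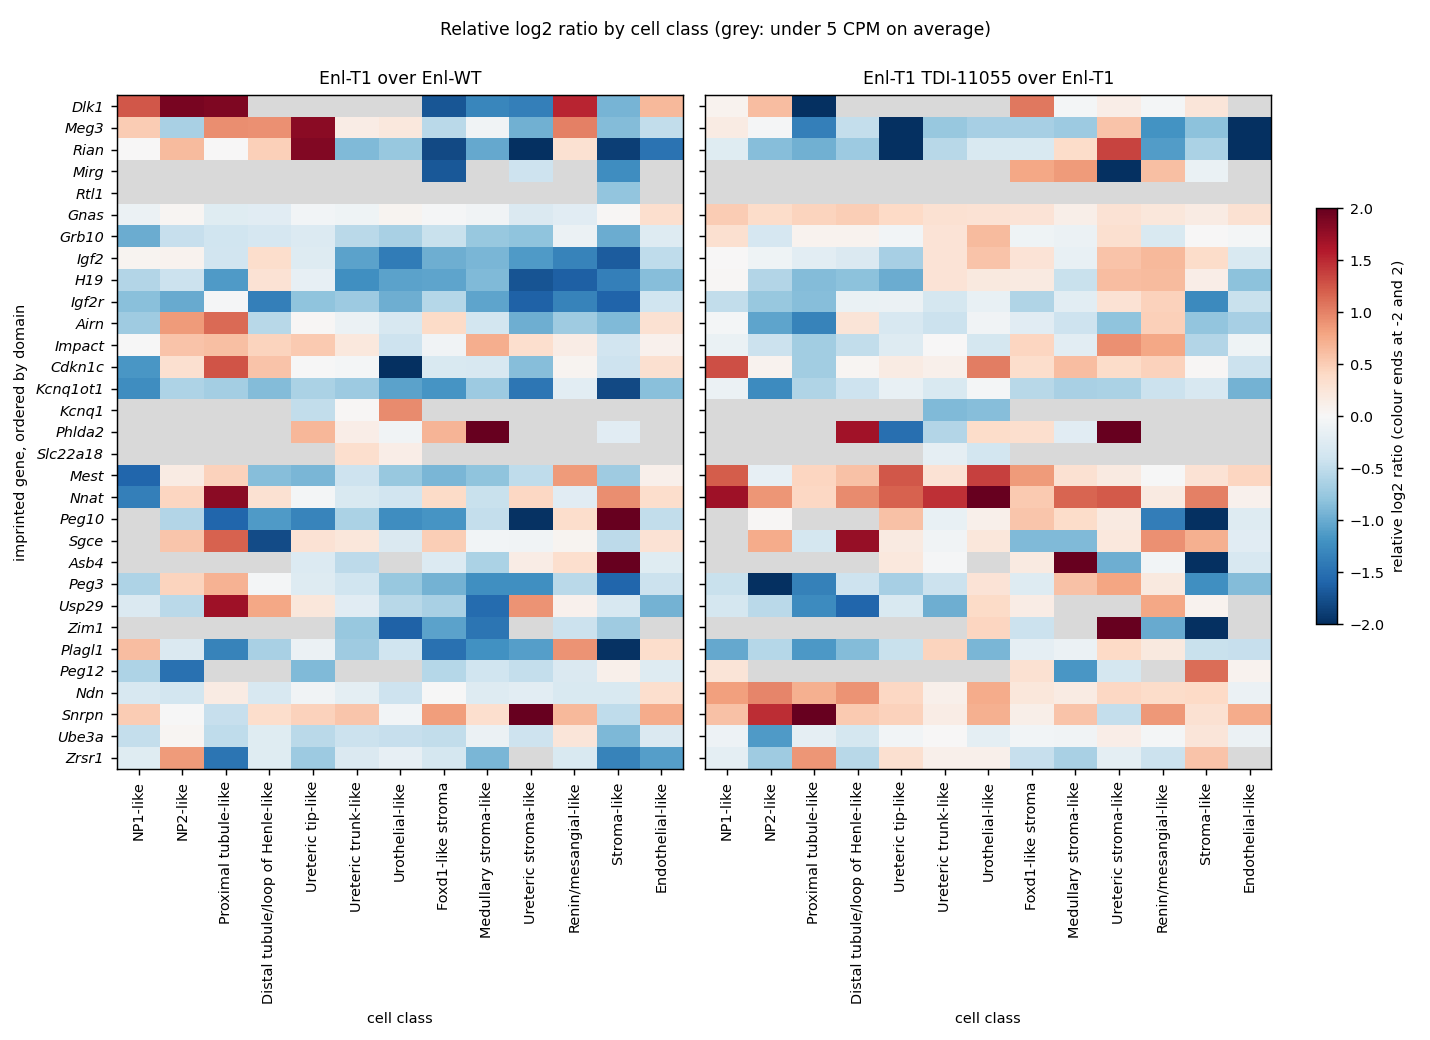
Relative log2 ratio of each member (rows, ordered by domain) in 13 cell classes (columns) for Enl-T1 over Enl-WT (left) and for the TDI-11055 library over Enl-T1 (right); blue is lower, red higher, grey marks members under 5 CPM on average, and colours end at -2 and 2. The row of Kcnq1ot1 is blue across the left panel, the row of Nnat is red in most classes of the right panel, and Dlk1 is blue in 4 stromal classes and red in 5 others on the left.

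Paternally and maternally expressed members were both among those lower in Enl-T1. In NP1-like cells, 6 of 14 paternally expressed and 4 of 6 maternally expressed members were lower (14.1% of all genes), and in Foxd1-like stroma 8 of 16 and 4 of 10 were (13.2% of all genes). In the ureteric epithelium the TDI-11055 library was lower than Enl-T1 for 6 of 10 maternally expressed members and none of 14 paternally expressed ones (10.0% of all genes), to which the adjustment for length added the paternally expressed Airn. Meg3, Phlda2 and Slc22a18 are among these 6, and the share of Urothelial-like cells moved with them, from 222 of 1119 to 48 of 945 cells. Its part in this count was not tested. The long non-coding members were lower in 3 of 5 in NP1-like cells and 4 of 6 in Foxd1-like stroma for Enl-T1 over Enl-WT, beside the same 14.1% and 13.2% of all genes. In Endothelial-like cells 5 of 5 were lower in the TDI-11055 library than in Enl-T1, beside 27.0% of all genes past the fold in either direction. After adjustment for length, which ended the call of Kcnq1ot1, 4 of 5 were lower, beside 12.8% of all genes.

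Other imprinted genes, a list of 46 with 44 in the tables, were counted in the same way. For this and the lists that follow, the shares of all genes past the fold are those given above for each group and comparison. In NP1-like cells, 3 of 22 were higher and 4 lower in Enl-T1, and in Foxd1-like stroma 1 was higher and 7 lower of 22. Dcn, a matrix proteoglycan of stroma, was the 1 higher there, at 82.4 CPM in Enl-WT, 362 CPM in Enl-T1 and 77.5 CPM in the TDI-11055 library. In the ureteric epithelium 3 of 24 were higher and 3 lower, and in Endothelial-like cells 2 and 2 of 24. For the TDI-11055 library over Enl-T1 the counts were 2 higher and 4 lower of 21 in NP1-like cells, 2 and 4 of 22 in Foxd1-like stroma, 1 and 5 of 24 in the ureteric epithelium and 2 and 4 of 23 in Endothelial-like cells.

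Enzymes and factors that keep imprints after fertilisation formed another list. Of 16 listed (among them Dnmt1, Uhrf1, Trim28 and Zfp57), 2 of 13 were lower and 1 higher in Enl-T1 in NP1-like cells, 2 of 14 lower in Foxd1-like stroma, 2 of 14 lower in the ureteric epithelium, and 3 of 13 lower and 1 higher in Endothelial-like cells, where 11.9% of all genes were lower and 13.2% higher. Dnmt3a, a de novo methyltransferase, was at 177 CPM in Enl-WT and 83.9 CPM in Enl-T1 in NP1-like cells, and at 172 and 95.7 CPM in Foxd1-like stroma. Zfp57, which protects methylated imprints, was at 13.6, 6.25 and 10.0 CPM in NP1-like cells. Between the TDI-11055 library and Enl-T1, 1 of 13 was higher in NP1-like cells, 1 of 13 lower in Foxd1-like stroma, 2 of 14 higher in the ureteric epithelium, and 1 of 13 higher and 2 lower in Endothelial-like cells.

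Among 17 genes of IGF signalling, the partners of Igf2, Igf2r and Grb10, the receptor Igf1r was at 234 CPM in Enl-WT and 110 CPM in Enl-T1 in NP1-like cells, and at 228 and 116 CPM in Foxd1-like stroma. In these groups 3 of 15 and 5 of 17 were lower and 1 and 1 higher, and in the ureteric epithelium 3 of 15 were lower and 1 higher, and in Endothelial-like cells 3 of 16 lower and 4 higher. The binding protein Igfbp5 was at 892, 222 and 447 CPM in Foxd1-like stroma, and Igfbp2 at 66.1 CPM in Enl-WT and 305 CPM in Enl-T1. In the TDI-11055 library over Enl-T1, 3 of 15 were higher and 3 lower in NP1-like cells, 4 and 4 of 17 in Foxd1-like stroma, 3 and 2 of 15 in the ureteric epithelium and 2 and 7 of 15 in Endothelial-like cells.

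Few of the other CDK inhibitors had enough counts. Of 6 listed, 1 of 3 was higher in Enl-T1 in NP1-like cells (Cdkn1a, p21, at 5.65 CPM in Enl-WT and 14.1 CPM in Enl-T1), 2 of 4 were higher in Foxd1-like stroma, none of 3 passed the fold in the ureteric epithelium and 1 of 3 was lower in Endothelial-like cells. Set against Enl-T1, the TDI-11055 library had 1 of 3 lower in NP1-like cells, 3 of 4 in Foxd1-like stroma, and 1 of 3 in each of the other groups. The 5 cycling genes were lower in the TDI-11055 library in 4 of 5 in NP1-like cells and in Foxd1-like stroma and 3 of 5 in the ureteric epithelium, and in Enl-T1 against Enl-WT in 1 of 5 in each of these 3 groups and 4 of 5 in Endothelial-like cells.

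Which genes overlap limits some of the values. The strand used in counting is not given in the sources used here, and Igf2, Cdkn1c, Mest, Kcnq1ot1, Kcnq1, Usp29, Gnas, Ube3a and Zrsr1 have exons that overlap a gene on the other strand in GENCODE M21. Snrpn shares exons with Snurf on its own strand, so their reads cannot be assigned to one of them with certainty, and the bodies of Airn and Igf2r overlap on opposite strands without sharing exons.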

How the data were processed

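Single-cell RNA-seq (10x Genomics 3′ v3.1) was done on pooled E15.5 kidneys, 1 library per group. The authors deposited UMI counts per gene and barcode, made with Cell Ranger 6.1.2 on mm10 according to the submitters' processing notes. The annotation release and the strand setting are not given in the sources used here. Replicate error is unknown, and intervals cover counting error only, with the median gene taken as fixed.

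Cells with 1000 to 6000 genes and at most 10% mitochondrial UMIs were kept and clustered in Seurat 5.3.0 (R 4.3.3; 2000 variable genes, 30 components and resolution 0.5 for all cells, 20 and 0.8 within a lineage). The 34 members, 45 Hox genes and 130 technical genes were left out of the clustering. Kept barcodes shared by a pair of libraries numbered 5 to 8. Scrublet (scanpy 1.11.5) marked no barcode in 2 libraries, so doublets were kept, and were left out only as an alternative.

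UMIs were summed per class and library (numpy 2.4.6, pandas 2.3.3, scipy 1.17.1) and ratios compared with a fold of 1.5 among genes of at least 5 CPM on average. Groups came from the labels. No test was possible with 1 library per group. The scripts were tested on simulated data. Exonic lengths and overlaps came from GENCODE M21, and promoters from RefSeq. Members with at least 5 CPM in a class were described by domain, and of the other lists those named were past the fold. The members and lists were chosen with earlier results of these data known. Alternatives changed the scaling, filters, doublets, depth, clustering genes, sex of cells and class.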

Additional observations from a re-analysis of the deposited data

Results flagged for a closer look

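The ratios of Enl-T1 over Enl-WT had opposite directions in different cell groups for Dlk1 and Plagl1. The relative log2 ratio of Dlk1 was 1.25 in NP1-like cells and -1.71 in Foxd1-like stroma, which differ by 2.96. In Endothelial-like cells Dlk1 was at 0.65, which differs from the stroma by 2.36 and rests on 15 UMIs in Enl-WT and 21 in Enl-T1. Plagl1 was at 0.61 in NP1-like cells and -1.49 in Foxd1-like stroma, which differ by 2.10. With 1 library per group these differences were not tested.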

How the results depend on the processing

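No paired analysis was possible because each group is 1 library. Of 69 called member values, 63 kept their sign under every alternative that could be computed and 23 stayed past the fold in all of them. For Enl-T1 over Enl-WT, a fold of 2 in place of 1.5 left 5 members past it in NP1-like cells, 8 in Foxd1-like stroma, 3 in the ureteric epithelium and 2 in Endothelial-like cells. Ratios not taken relative to the median gene gave 15 in the ureteric epithelium and 11 in Endothelial-like cells. In Endothelial-like cells a minimum of 1 CPM gave 12, a minimum of 20 CPM gave 3, and cells with Y-linked UMIs only gave 13. For the TDI-11055 library over Enl-T1, a minimum of 1 CPM gave 9 in NP1-like cells and 10 in Foxd1-like stroma, thinning to 2000 UMIs gave 11 and 14, and the stricter cell filter (1500 to 5000 genes, at most 5% mitochondrial) gave 9 in NP1-like cells and 6 in the ureteric epithelium. There, a minimum of 20 CPM gave 6 and a fold of 2 gave 6. A fold of 2 gave 1 in Foxd1-like stroma and 2 in Endothelial-like cells, and no upper limit on genes gave 2 and 4. Without thinning, 21 members were found in at least 10% of NP1-like cells in Enl-T1 and 21 in the TDI-11055 library, against 10 and 11.

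The log2 ratio for Enl-T1 over Enl-WT changed sign for Plagl1 in NP1-like cells (-0.089 thinned and -0.63 over the whole lineage), Peg3 in NP1-like cells (0.11 over the whole lineage) and Snrpn in Foxd1-like stroma (-0.082 in cells with Y-linked UMIs only). In Endothelial-like cells it changed sign for Rian (0.31 with the stricter filter) and Dlk1 (-1.40 with no upper limit on genes). For the TDI-11055 library over Enl-T1 it did so for Mirg in Foxd1-like stroma (-0.15 with no upper limit). The whole-lineage setting also brings in other classes, whose shares differ between the libraries. The cause was not tested. Clustering with all variable genes kept the class of highest level for 26 of 31 members, the exceptions being Peg3, Peg10, Grb10, Kcnq1 and Usp29. Cluster N0 alone, NP1-like cells with cluster N1, and cells with under 2 cycling genes were settings chosen after seeing the data. Mirg, Snrpn and Phlda2 in Foxd1-like stroma and Dlk1 outside the stroma rest on few counts.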
